A study of Mus musculus with 7 samples.

Results

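The transcripts described here encode matricellular proteins, secreted proteins that sit in the extracellular matrix and change how cells read it without forming its fibres. 10 genes were listed by name: Ccn1, Ccn2, Thbs1, Thbs2, Postn, Tnc, Sparc, Spp1, Comp and Itgbl1. All probe sets that a platform table assigns to exactly 1 of these genes were taken, which gave 13 probe sets of 9 genes, out of 22626 probe sets of 12393 named genes. The table used here names no probe set for Spp1, and that gene was not analysed here. The genes were selected on their intensities in the contrast of knockout and wild type, so their values in that contrast are given as a description and carry no p-value.

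Each array, of the MOE430A design, held left ventricular RNA of 1 male mouse at an age of 21 months. The mice labelled eNOS knockout, here M4, M10 and M140, lack endothelial nitric oxide synthase, the enzyme that makes nitric oxide in the lining of blood vessels and in heart muscle cells. The mice labelled wild type are 4 in number, M23, M125, M128 and M158. The labels set the expression profile of old knockout males, in which heart function and survival decline, against that of old wild-type males. One label keyword is exercise, and none gives an exercise state, a strain, the form of the knockout allele or littermates. The sheets written with each scan give 4 hybridization days that coincide with 4 chip lots. M140 and M128 share day 1, M125 stands alone on day 2, M4 and M10 share day 3, and M23 and M158 share day 4. Whether mice shared a litter or a cage is not given, so the spread between arrays holds mouse and day together.

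Many matricellular proteins are scarce in the quiet adult heart and are known for their induction where heart muscle is injured, stretched or scarred. The CCN proteins Ccn1 and Ccn2 are modular factors that bind integrins and growth factors, and both genes respond within hours to stretch through the coactivator YAP and to transforming growth factor beta (TGF-beta). Thrombospondins and the related cartilage oligomeric matrix protein bind calcium, collagens and cell receptors, and thrombospondin 1 can release TGF-beta from its latent form. Periostin and tenascin C are classic products of activated fibroblasts, and the protein made from Sparc (osteonectin) binds collagen and affects how its fibrils assemble.

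Ccn2 and Comp were the 2 probe sets, of 13, that read above every wild-type array on all 3 knockout arrays. Another 6 did so on 2 knockout arrays only: M4 and M140 for both probe sets of Ccn1, for Postn, for Itgbl1 and for 1 of the 2 of Sparc, and M10 and M140 for 1 of the 2 of Thbs2. Tnc and the other probe set of Sparc did so on M140 alone, and both of Thbs1 and the other of Thbs2 on none. No probe set lay below the wild-type range on all 3 knockout arrays. Over all 22626 probe sets, 3.59% read above all wild-type arrays on all 3 knockout arrays, 11% on exactly 2 and 24.8% on exactly 1, shares given for scale since the contrast chose the genes. The fit across the table took in each probe set that passed the 40th percentile of intensities on 3 or more arrays, which 10 of the 13 did. Over the 13836 such probe sets the shares were 4.97%, 12.4% and 22.4%, with 4.34% below all wild-type arrays on all 3 knockout arrays and 5.93% above them on M4 and M140 but not M10. The nearest value on the inner side of the rule was Comp on M10, at 1.04 times the highest wild-type array, and among probe sets high on 2 arrays the nearest on the outer side was Itgbl1 on M10, at 0.887 times it.

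**Figure D1:**
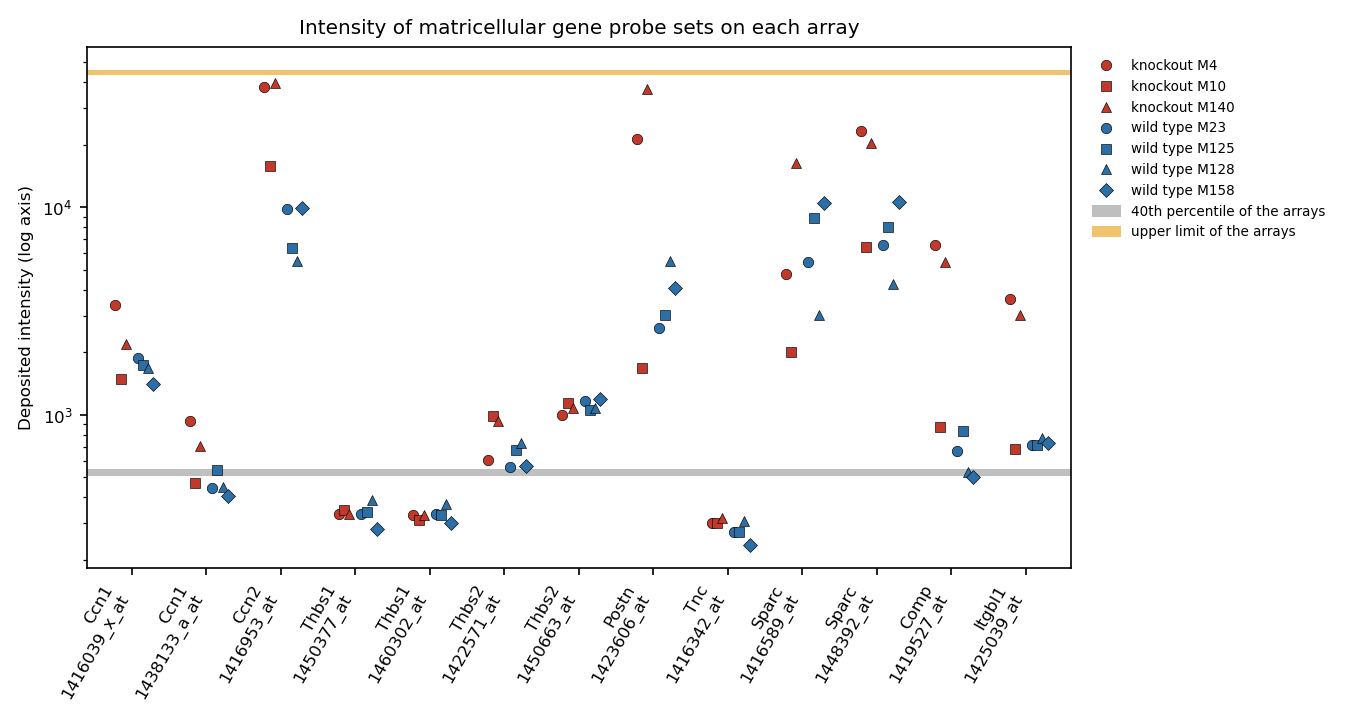
Deposited intensity (log axis) of the 13 probe sets on each array, with knockout arrays in red left of the wild-type arrays in blue. The grey band spans the 40th percentiles of the arrays and the yellow band their upper limits; Ccn2, Postn and Comp on M4 and M140 lie far above the wild-type arrays, while Thbs1 and Tnc lie below the grey band on every array.

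Promoter windows of RefSeq (build GRCm38.p6, 250 bases before to 50 bases after a transcript start) were at hand for 6 of the 9 genes. The windows of Ccn1, Postn and Sparc are shown because a probe set of each was high on M4 and M140 but not M10 and the window held a match. They run 5′ to 3′, and capitals mark matches to the letters searched.
Ccn1, chr3:145649936-145650235, minus strand: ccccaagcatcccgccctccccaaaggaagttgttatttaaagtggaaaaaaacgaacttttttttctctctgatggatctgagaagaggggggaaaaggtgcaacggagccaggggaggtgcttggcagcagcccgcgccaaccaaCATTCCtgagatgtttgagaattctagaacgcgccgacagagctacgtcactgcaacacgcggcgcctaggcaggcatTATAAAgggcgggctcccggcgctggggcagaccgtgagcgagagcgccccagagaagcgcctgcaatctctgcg
Postn, 1 of its 2 listed starts, chr3:54360857-54361156, plus strand: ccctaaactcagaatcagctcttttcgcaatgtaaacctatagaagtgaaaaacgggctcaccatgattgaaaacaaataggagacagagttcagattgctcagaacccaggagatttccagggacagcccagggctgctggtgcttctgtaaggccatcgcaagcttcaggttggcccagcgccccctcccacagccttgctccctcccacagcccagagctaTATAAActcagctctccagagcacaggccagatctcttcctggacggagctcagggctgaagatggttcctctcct
Sparc, chr11:55420031-55420330, minus strand: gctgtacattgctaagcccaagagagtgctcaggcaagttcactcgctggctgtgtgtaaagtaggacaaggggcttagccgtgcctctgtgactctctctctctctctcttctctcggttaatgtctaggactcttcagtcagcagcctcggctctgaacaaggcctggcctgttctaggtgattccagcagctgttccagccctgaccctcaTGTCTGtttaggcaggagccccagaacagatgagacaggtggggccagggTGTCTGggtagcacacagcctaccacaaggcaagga
Searched on both strands were GGAATG (bound by TEAD factors, the partners of YAP), CAGACA (bound by SMAD factors of the TGF-beta pathway), TGANTCA (AP-1) and the CArG box of serum response factor, and on the gene's strand TATAAA (the TATA box). The Ccn1 window held 1 TEAD match, in the reverse orientation, and 1 TATA match. The Postn window shown held 1 TATA match, and its other listed window and that of Itgbl1 held none of the 5 motifs. The Sparc window held 2 SMAD matches, both in the reverse orientation. Among the windows not shown, that of Thbs2 also held 2 SMAD matches. Those of Tnc held 1 and 2 SMAD matches and 1 TATA match each, so genes without the pattern used for showing windows held such matches too. No 2 matches overlap in the windows shown. Of 32851 windows of the same length, 14.7% held the TEAD letters, 21% the SMAD letters, 7.81% the AP-1 letters, 1.63% the CArG box and 8.32% the TATA letters. These matches are a description of the letters.

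Ccn2, also called connective tissue growth factor, separated the groups on every array. It read 37804, 15789 and 39938 on knockout M4, M10 and M140, against 9837, 6364, 5514 and 9912 on the wild-type arrays (M23, M125, M128, M158). The groups did not overlap, and M10 was the lowest knockout array, at 1.59 times the highest wild-type array. Knockout arrays averaged 31177 ± 13369 (SD, n = 3) and wild-type arrays 7907 ± 2299 (SD, n = 4), and on the log2(intensity + 16) scale the difference was 1.91 ± 0.36 (SE). Here and below, SE is limma's moderated value, which draws on the spread of other probe sets too. The pooled SD of the log2 values of Ccn2 was 0.58. The scale stops at an upper limit on each array; M4 and M140 stood at 84.3% and 87.7% of it, so that part of the range was already used. Within hybridization day 1, which alone held both groups, M140 exceeded M128 by 2.85 on the log2 scale. In tissue RNA of this kind, more cells of a type and more RNA in each cell cannot be told apart, which holds for every value below.

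Ccn1 (CYR61), the sister gene of Ccn2 and a rapid-response gene, differed far less. Its probe set 1416039_x_at read 3389, 1482 and 2196 on knockout M4, M10 and M140, against 1875, 1741, 1675 and 1400.2 on the wild-type arrays (M23, M125, M128, M158). M4 and M140 lay above the wild-type range and M10 inside it. The second probe set, 1438133_a_at, showed the same order of the knockout arrays, with 929, 467 and 708 against 443, 542, 446 and 403 on the wild-type arrays in the same order. The log2 differences were 0.42 ± 0.26 and 0.55 ± 0.21 (SE). Without M4 they were 0.12 and 0.33, and without M10 they were 0.71 and 0.81. M4 read 2.03 times the wild-type mean on both, and across the 7 arrays their log2 values correlated at r = 0.93. The second lies near the middle of the arrays' range, above the 40th percentile on 3 arrays, 1 of them wild type, and so entered the fit mainly through knockout arrays. Probe sets ending in _x_at, as 1416039_x_at does, can also bind related transcripts.

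Comp, cartilage oligomeric matrix protein, is thrombospondin 5 and a collagen-binding protein of cartilage, tendon and scar. It read 6604, 869 and 5427 on knockout M4, M10 and M140, against 670.5, 836, 531 and 499 on the wild-type arrays (M23, M125, M128, M158). M4 and M140 stood at 10.4 and 8.56 times the wild-type mean, and M10 was only just above wild-type M125. Knockout arrays averaged 4299.95 ± 3029 (SD, n = 3) and wild-type arrays 634 ± 154 (SD, n = 4), with a log2 difference of 2.32 ± 0.63 (SE), the largest of the 13. Without M10 that difference was 3.24. It passed the 40th percentile on 5 arrays, 2 of them wild type, so its wild-type level sat near the lower part of the measurable range. Within day 1, M140 exceeded M128 by 3.32 on the log2 scale.

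The thrombospondins Thbs1 and Thbs2, which restrain vessel growth and bind CD36 and CD47, showed no such separation. Both Thbs1 probe sets stayed below the 40th percentile on all 7 arrays and were not tested: 1450377_at read 332 to 346 on the knockout arrays against 281 to 386 on the wild-type arrays. The second, 1460302_at, read 311 to 329 against 301 to 372. Every knockout value of both lay inside the wild-type range. Thbs2 was measured by a pair of probe sets that disagree. On 1422571_at it read 601, 990.1 and 929 on knockout M4, M10 and M140, against 558, 673, 728 and 568 on the wild-type arrays (M23, M125, M128, M158). This was the 1 probe set on which M10 and M140 lay above the wild-type range and M4 did not, an order held by 1.41% of all tested probe sets. Its log2 difference was 0.38 ± 0.18 (SE), 0.25 without M10 and 0.60 without M4. On 1450663_at the values were 995, 1141 and 1078 against 1168, 1057, 1078 and 1190.5, with overlapping groups and a log2 difference of -0.07 ± 0.08 (SE).

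Postn encodes periostin, a matrix protein of activated fibroblasts and healing scar that binds collagen and integrins. It read 21455, 1684 and 37003 on knockout M4, M10 and M140, against 2619, 3011, 5504 and 4059.7 on the wild-type arrays (M23, M125, M128, M158). The knockout arrays spanned 21.97-fold and the wild-type arrays 2.10-fold, and M10 lay below every wild-type array while M4 and M140 lay above them all. Knockout arrays averaged 20047 ± 17701 (SD, n = 3) and wild-type arrays 3798 ± 1289.6 (SD, n = 4), and the log2 difference of 1.59 ± 0.94 (SE) had the widest error of the 10 tested probe sets. Leaving out M10 gave 2.95, leaving out M140 gave 0.72 and leaving out M4 gave 1.12. The value therefore depends on which of the 3 knockout mice is counted.

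Itgbl1, an integrin-beta-like secreted protein built of EGF-like repeats, was likewise high on M4 and M140 and low on M10. It read 3606, 686 and 3024 on knockout M4, M10 and M140, against 714, 711, 773 and 733 on the wild-type arrays (M23, M125, M128, M158). The wild-type arrays differed by 1.09-fold at most, the narrowest spread of any member, and M10 lay just below them while M4 and M140 stood at 4.92 and 4.13 times their mean. The log2 difference was 1.40 ± 0.50 (SE), and 2.15 without M10. Across the 7 arrays the log2 values of Itgbl1 correlated at r = 0.97 with Comp, 0.94 with Postn, 0.93 with 1438133_a_at of Ccn1 and 0.88 with Ccn2. These coefficients are over 7 arrays that share the contrast by which the genes were listed and are given with no test.

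**Figure D2:**
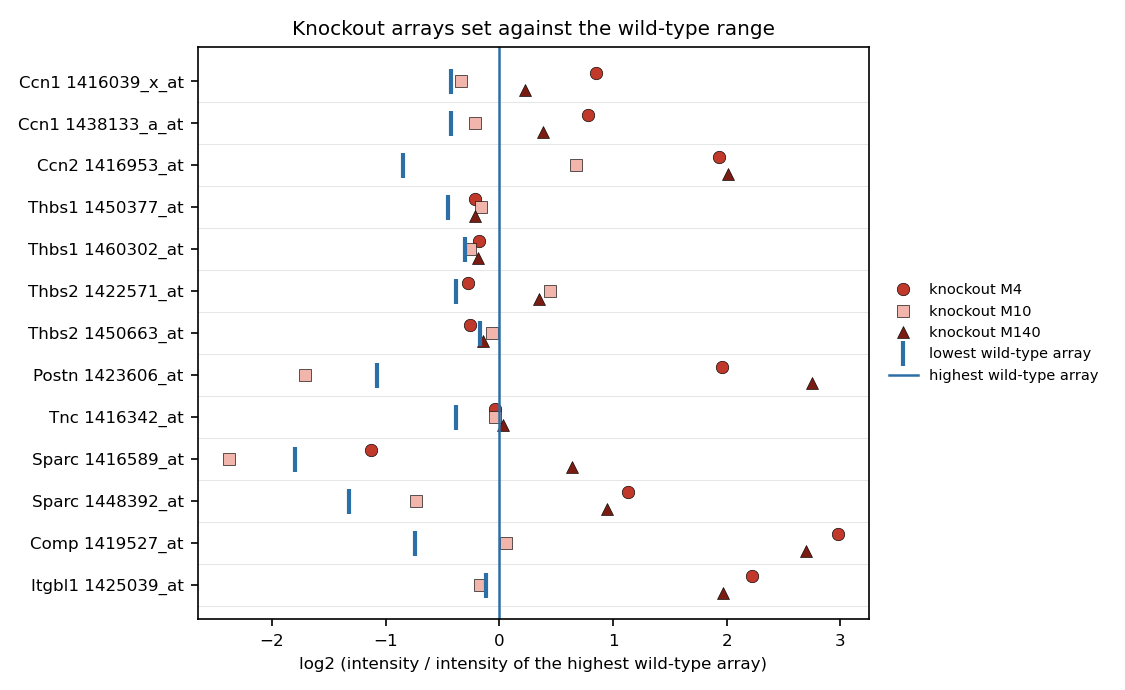
Intensity of each knockout array relative to the highest wild-type array (log2 scale), for the 13 probe sets; the vertical line marks the highest wild-type array and the blue ticks the lowest. M10 (pale squares) lies right of the line for Ccn2, Comp and 1 probe set of Thbs2, whereas M140 (dark triangles) lies right of it for 10 of the 13.

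For Sparc the probe sets differed over all 7 arrays. On 1448392_at it read 23368, 6411 and 20497 on knockout M4, M10 and M140, against 6556, 8032, 4259 and 10657 on the wild-type arrays (M23, M125, M128, M158). M4 and M140 lay above the wild-type range and the log2 difference was 1.05 ± 0.48 (SE). On 1416589_at it read 4778, 2009 and 16325 against 5435, 8835, 3014 and 10461 in the same order of arrays. Here M140 alone lay above the range, M10 lay below it, and the log2 difference was -0.21 ± 0.70 (SE). The probe sets ran together on the wild-type arrays and on M140 and parted on the other knockout arrays. M4 read 3.17 times the wild-type mean on the one and 0.689 times on the other, and M10 read 0.869 and 0.290 times. The sign on 1416589_at turned with the arrays used: it was 0.50 without M10, 0.04 without M158, 0.26 with the day as a random block and 2.43 within day 1. On 1448392_at it stayed positive under each alternative run, at 0.71 to 1.64 when single arrays were left out and 2.26 within day 1. Within day 1, where M140 was set against M128, both probe sets thus read higher by a like amount. The files give no ground for preferring either probe set.

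**Figure D3:**
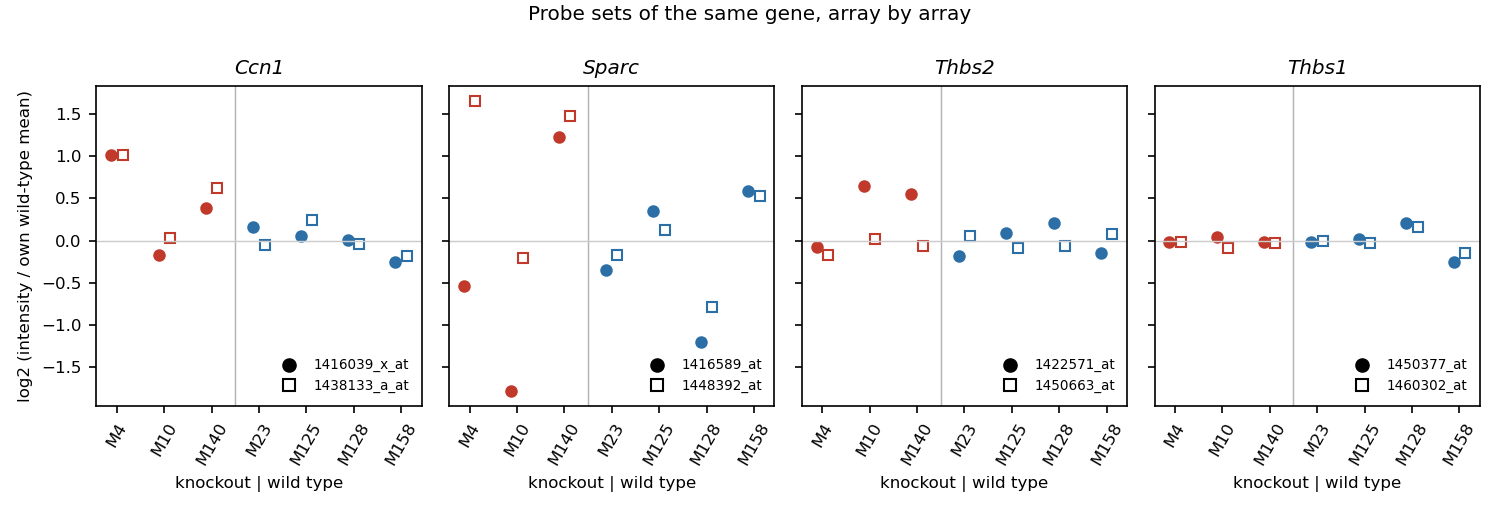
The 4 genes with 2 probe sets, each array's intensity relative to that probe set's own wild-type mean (log2 scale), knockout arrays in red left of wild-type arrays in blue; filled circles and open squares are the 2 probe sets. The probe sets of Ccn1 and Thbs1 keep together, those of Sparc part on M4 and M10, and those of Thbs2 part on M10 and M140.

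Tnc, tenascin C, a large glycoprotein made at sites of injury, was dim on every array. Its probe set read 299.6, 301 and 316 on knockout M4, M10 and M140, against 270.4, 270.5, 308 and 236 on the wild-type arrays (M23, M125, M128, M158). It stayed below the 40th percentile of each array and was not tested. The knockout arrays lay at the upper edge of the wild-type range, with M140 at 1.03 times its highest value.

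M4 and M10 were hybridized on the same day with the same chip lot, and still read far apart for several of these genes. M4 exceeded M10 by 12.7-fold for Postn, 7.60-fold for Comp, 5.26-fold for Itgbl1, 3.65-fold and 2.38-fold for the probe sets of Sparc, and 2.39-fold for Ccn2. More than a 2-fold excess of M4 over M10 was seen in 7 of the 10 tested member probe sets and in 0.752% of all tested probe sets. The members were listed from intensities that include these arrays, so the 2 shares are given for scale only. The 7 also count Sparc by both of its probe sets. For Thbs2 the order was the reverse, with M4 at 0.608 and 0.872 times M10. Leaving M10 out, 7 of the 13 probe sets read above all wild-type arrays on both remaining knockout arrays, as did 7.79% of all 22626. Leaving M4 out, 3 did, against 5.35% of all. Without M140 the 2 were again Ccn2 and Comp, against 8.64% of all. Without wild-type M125 the second probe set of Ccn1 joined them (5.91% of all), and without wild-type M128 Tnc did (5.51% of all).

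Summed fibroblast markers were also high on M4 and M140, though not every marker was. The summed intensity of 12 fibroblast markers (Col1a1, Col1a2, Col3a1, Pdgfra, Dcn and others) was 106985 on knockout M4, 70261 on M10 and 128218 on M140, against 78874 to 86740 on the wild-type arrays. That of the 9 markers of activated fibroblasts on the array (Lox, Fn1, Meox1, Acta2 and others, of 11 listed) was 40219, 19822 and 43326, against 18305 to 23925. Of the 12 fibroblast markers 7 lay above all wild-type arrays on exactly 2 knockout arrays and 0 on all 3, and their median log2 difference was 0.09. Over all tested genes 12.9% lay above on exactly 2 and 5.29% on all 3. Dcn, Lum, Dpt, Tcf21 and Fap lay above all wild-type arrays on none, with log2 differences of -0.04, -0.23, 0.02, -0.12 and -0.12. Of the 9 markers of activated fibroblasts 6 lay above on exactly 2 and 1 on all 3, with a median of 0.77. The part of these cells in the member values was not tested. All 12 and all 9 were detected above the 40th percentile on at least 1 array. Of the 12 fibroblast markers 0 had an unadjusted p under 0.05 by limma. Of the 9 of activated fibroblasts 3 did, all higher, as were 6.77% of all tested genes. The log2 differences were 0.77 for Fn1, 1.33 for Lox and 1.11 for Meox1 (adjusted p = 0.248, 0.294 and 0.297 by limma).

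Markers of other possible sources of these transcripts were summed in the same way. The 12 markers of cartilage, tendon and valve summed to 5631 to 6046 on the knockout arrays against 5429 to 6043 on the wild-type arrays, and 5 of the 12 (Sox9, Scx, Tnmd, Matn1 and Mia) stayed below the 40th percentile on all 7 arrays. Of the 5 that were tested (Acan, Col2a1, Col9a1, Cnmd and Fmod) 0 had an unadjusted p under 0.05 by limma. Fmod, the collagen-binding proteoglycan fibromodulin, read 1390.4, 951 and 1301 on knockout M4, M10 and M140, against 883 to 1035 on the wild-type arrays. It was thus high on the arrays where Comp was high. Cnmd went the other way on them, with 305, 697 and 285 on M4, M10 and M140 against 435 to 676. Col9a1 lay below all wild-type arrays on all 3 knockout arrays, as did 4.89% of tested genes. Acan and Col2a1 stayed inside the wild-type range, and the median log2 difference of the 5 was -0.008. The part of such cells in the Comp values was not tested. The 13 macrophage markers summed to 37638, 35197 and 46562 on M4, M10 and M140 against 27266 to 42494 on the wild-type arrays. Of the 13, 4 (Fcgr3, Cd163, Csf1r and Cd68) were higher at an unadjusted p under 0.05 by limma, as were 6.77% of all tested genes. None passed limma's adjusted p, and Trem2 and C1qa had log2 differences of -0.04 and -0.05. The 6 platelet markers summed to 8752 to 11564 against 8893 to 9707. Of the 6 epicardial markers on the array 3 (Tbx18, Msln and Aldh1a2) stayed below the 40th percentile throughout, and the list summed to 2792 to 3308 against 2625 to 2967. The 10 endothelial markers summed to 23334 to 26153 against 16876 to 25230, and the 8 smooth muscle markers, led by Des, which heart muscle also makes in quantity, to 34608 to 49991 against 18306 to 34368. Red blood cell markers on the array summed to 5732 to 10834 against 4414 to 5182, with the Hba genes below the 40th percentile throughout.

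**Figure D4:**
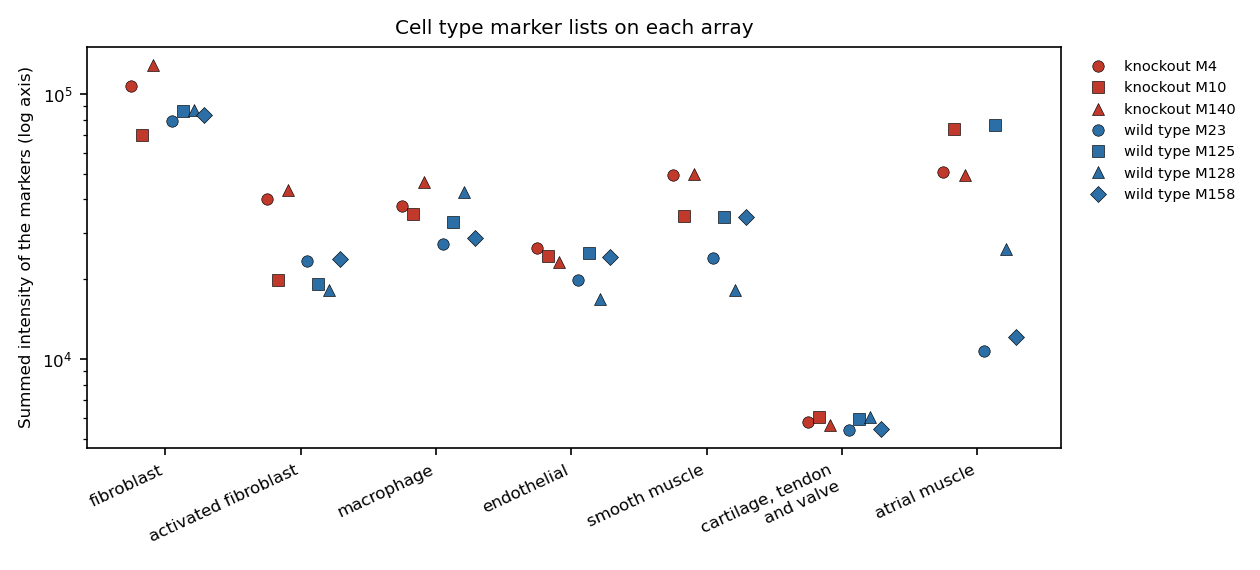
Summed intensity (log axis) of the marker lists of 7 cell types on each array, knockout arrays in red left of wild-type arrays in blue. Fibroblast and activated fibroblast sums are high on M4 and M140 and not on M10, cartilage sums overlap between the groups, and atrial sums are highest on M10 and M125. The atrial sums of M4 and M140, 50789 and 49346, are mostly Nppa, which stands at the upper limit there (44868 and 45540), while Myl7 reads 1207 and 407.

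The tissue and the labels were checked in the same way. The heart muscle transcripts Myh6 and Actc1 stood at the upper limit of every array, so they could not show a difference between arrays. Myl7, a light chain of atrial muscle, stood at 17557 for M10 among the knockouts and at 16097 for M125 among the wild types, with 356 to 2926 elsewhere. M10, the array low in Postn and Itgbl1, thus also carried atrial transcript, and its part in the low values was not tested. M125, with a like amount, read 3011 for Postn, within the range of the other wild-type arrays, and 711 for Itgbl1, just below them. The value of 2926 was that of wild-type M128, against 407 on knockout M140 of the same day. The atrial transcripts Sln and Myl4 read 3071 and 5738 on M128 against 477 and 1113 on M140. The differences within day 1 thus compare arrays that also differ in atrial transcript, and its part in them was not tested. The ratio of 5′ to 3′ Gapdh control signal was 0.521 to 0.759 on the knockout arrays against 0.0978 to 0.777 on the wild-type arrays, lowest on M23 and M158. The Nos3 probe set read 1145, 1413 and 1135 on the arrays labelled knockout against 791 to 1163 on those labelled wild type. Its position against the disruption is not stated, so it does not check the labels, and all directions rest on the labels.

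Other matricellular genes, none of them among the 10, were read beside the members, and 0 passed the test. In the fit across the whole table, limma called 0 of 13836 probe sets at an adjusted p under 0.05, a background of 0%, while its unadjusted p was under 0.05 for 909 higher (6.57%) and 727 lower (5.25%) ones. Among the 8869 genes, each read by its brightest tested probe set, 6.77% were higher and 5.4% lower at that unadjusted p. Of these genes 5.29% lay above all wild-type arrays on all 3 knockout arrays, 12.9% on exactly 2 and 22.8% on exactly 1. Of 31 further matricellular genes 23 were tested, 9 were higher and 1 was lower by limma at an unadjusted p under 0.05, and 3 lay above on all 3 knockout arrays and 11 on 2. Their median log2 difference was 0.19, against -0.003 over all tested genes. Lgals3, the lectin galectin-3 of macrophages and fibroblasts, read 3226, 1573 and 2412 on knockout M4, M10 and M140, against 648, 1132, 1283 and 771 on the wild-type arrays (M23, M125, M128, M158), with no overlap and a log2 difference of 1.30 ± 0.30 (SE; adjusted p = 0.212 by limma). Fbln5, a fibulin of elastic fibres, read 2689, 1405 and 2979 against 1133, 1405, 1079 and 1119, where M10 equalled the highest wild-type array (0.92 ± 0.25, adjusted p = 0.259). Efemp1, a fibulin too, was the 1 lower gene, at 495, 1097 and 417 against 1399.6, 1137, 1705 and 1097 (-1.08 ± 0.31, adjusted p = 0.285). Family members of the listed genes were looked at after their values were seen. Ccn5 differed by 0.95 (adjusted p = 0.347 by limma), Thbs4 by 0.93 (adjusted p = 0.341) and Thbs3 by 0.24 (adjusted p = 0.379). Not all were higher: Ccn4 differed by 0.03 (adjusted p = 0.927 by limma), Tnxb by -0.15 (adjusted p = 0.847) and Sparcl1 by -0.11 (adjusted p = 0.920). The 3 genes of the list above all wild-type arrays on all 3 knockout arrays were Lgals3, Thbs3 and Tgfbi. Tgfbi read 3578.2, 3577.7 and 2592 on knockout M4, M10 and M140, against 1414 to 2477 on the wild-type arrays (0.62 ± 0.23, adjusted p = 0.366 by limma). With limma array weights, or without M10, 5 of the 23 passed an adjusted p of 0.05: Ccn5, Thbs4, Fbln5 and Efemp1 in both, with Lgals3 in the first and Igfbp7 in the second.

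Receptors of matricellular proteins were divided. Of 28 genes 20 were tested, 3 were higher and 3 were lower by that unadjusted p, and 0 passed limma's adjusted p; the median log2 difference was 0.07. Vldlr, a lipoprotein receptor that also binds thrombospondin 1, read 7809, 7998 and 10408 on knockout M4, M10 and M140, against 11816, 15631, 14940 and 14551 on the wild-type arrays (M23, M125, M128, M158) (-0.71 ± 0.15, adjusted p = 0.186). Cd36, the fatty acid transporter and thrombospondin receptor, read 13133 to 14432 against 16144 to 17090 (-0.24 ± 0.08, adjusted p = 0.308). Both lay below all wild-type arrays on all 3 knockout arrays, which 4.89% of tested genes did. Stab1, a scavenger receptor for Sparc protein, read 1673 to 1942 against 1304 to 1483 (0.35 ± 0.10, adjusted p = 0.266). With array weights these 3 passed an adjusted p of 0.05, as did 619 probe sets over the whole table.

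YAP targets and genes of the TGF-beta pathway, the signals named above for Ccn1 and Ccn2, were read next. Both lists had more genes above all wild-type arrays on exactly 2 knockout arrays than on all 3, as held for all tested genes too. Of 20 YAP and TEAD target genes 13 were tested, 2 were higher and 0 were lower by that unadjusted p, and the median log2 difference was 0.15. Of the 13, 1 lay above all wild-type arrays on all 3 knockout arrays and 6 on exactly 2. Over all tested genes 5.29% and 12.9% did so. Ankrd1, a stress-inducible protein of heart muscle, read 44868, 40616 and 45540 on knockout M4, M10 and M140 against 12525 to 23519 on the wild-type arrays (1.28 ± 0.21, adjusted p = 0.138); M4 and M140 were at the upper limit. Ptpn14 differed by 0.60 ± 0.18 (adjusted p = 0.294) and Igfbp3 by 0.58 ± 0.26 (adjusted p = 0.447), both with overlapping groups. Ankrd1 passed with array weights, as did 619 probe sets over the whole table. Of 20 TGF-beta ligands, receptors and response genes 17 were tested, 3 were higher and 0 lower, and the median was 0.28. Of the 17, 2 lay above all wild-type arrays on all 3 knockout arrays and 7 on exactly 2. Ltbp2, by name only a latent TGF-beta binding protein, read 3888, 702 and 3415 on knockout M4, M10 and M140, against 413, 579, 613 and 385 on the wild-type arrays (M23, M125, M128, M158) (2.08 ± 0.54, adjusted p = 0.255 by limma). Its knockout arrays stood in the order they had for Comp, and its wild-type arrays did not. Pmepa1, an inhibitor of SMAD signalling, and the ligand Tgfb3 differed by 0.93 ± 0.29 and 0.58 ± 0.19 (adjusted p = 0.296 and 0.319), with M10 inside the wild-type range for Tgfb3 and equal to its top for Pmepa1. These 3 passed with array weights and without M10, settings in which 619 and 79 probe sets passed over the whole table.

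Immediate early genes, which share rapid induction with Ccn1, were examined beside it. Of 23 such genes 20 were tested, 3 were higher and 0 were lower by that unadjusted p, and the median log2 difference was 0.16. Ier5 read 3351, 3242 and 2456 on knockout M4, M10 and M140 against 1162 to 1884 on the wild-type arrays (0.87 ± 0.20, adjusted p = 0.218), and Btg2 read 2911, 3018 and 2056 against 1554 to 1965 (0.55 ± 0.16, adjusted p = 0.293). Both were high on M10 too, unlike Ccn1. Egr1, the early growth response factor, read 4990.3, 2362 and 1471 against 979.8 to 1537 (0.99 ± 0.37, adjusted p = 0.377), highest on M4 as was Ccn1. Ier5 and Btg2 passed an adjusted p of 0.05 with array weights, as did 619 probe sets over the whole table.

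**Figure D5:**
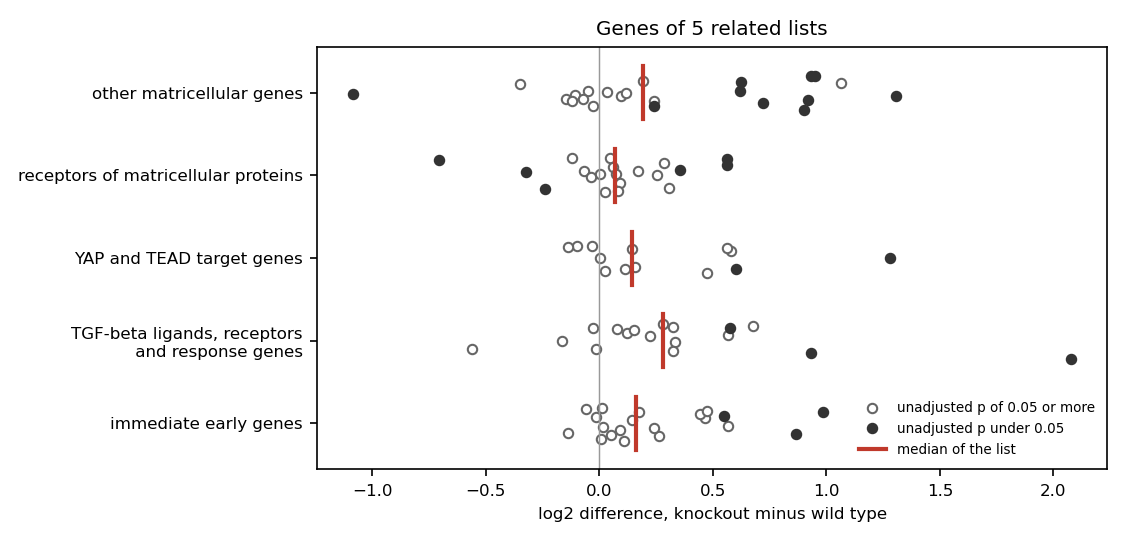
log2 difference, knockout minus wild type, of each tested gene in 5 lists that exclude the 10 listed genes; filled points had an unadjusted p under 0.05 by limma and red lines are list medians. The medians run from 0.07 for the receptors to 0.28 for the TGF-beta list, and 0 genes passed an adjusted p under 0.05.

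Genes whose pattern over the 7 arrays was most like a member's were found by Pearson correlation of log2 values among the 8869 tested genes. For Ccn2 they were Iqgap1 (r = 0.98), Golga4 (0.98), Pfkp (0.98), Map4 (0.98) and Rab31 (0.98), with log2 differences of 0.54, 0.55, 1.22, 0.47 and 0.55. Each read higher on M4 and M140 than on M10, and M10 in turn stood at or above all wild-type arrays. For Postn they were Ccdc80 (r = 0.99), Col5a2 (0.99), Emp1 (0.99), Plekha6 (0.98) and Krcc1 (0.97), with log2 differences of 0.56, 1.04, 0.83, 0.16 and 0.22. Col5a2, a fibrillar collagen chain, read 5447, 1363 and 7436 on knockout M4, M10 and M140, against 1754.1, 1621, 2340.4 and 1754.5 on the wild-type arrays (M23, M125, M128, M158), so it shared with Postn a low M10 and a wild-type maximum on M128. With 7 points and so many genes searched, high coefficients can arise readily, and these are given as a description.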

How the data were processed

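The deposited table holds probe set intensities on a linear scale; how the authors computed them (software, background, scaling) is not stated in the labels or headers. Array medians ran over 671 to 699, minima over 86.5 to 92.3 and upper limits over 44145 to 45552, so that differences are understated at both ends. The deposited experiment sheets served as other information with no measurement and, per the file headers, gave the chip design, hybridization day and chip lot. The number of arrays, 3 and 4, limits the precision.

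The 64 control probe sets were left out of 22690. A platform table named 1 gene for 20380 of the rest, several for 691 and none for 1555; 20351 matched RefSeq GRCm38.p6 by gene number, with 0 symbols changed. Values were used as deposited, as log2(intensity + 16). Linear models of limma 3.58.1 in R 4.3.3 (moderated two-sided test, mean-variance trend, no covariate) were fitted over 13836 tested probe sets with Benjamini-Hochberg adjustment; all single-gene p-values are limma's. On simulated data of this comparison (13836 probe sets, independent noise) 200 were changed by 1, by 1.5 or by 2 (log2), and 70.5%, 94.5% and 95% were recovered beside 10, 16 and 11 false calls. The simulated arrays share no day or lot effect, so these shares give no recovery rate for the real arrays.

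The members and gene lists were chosen with earlier results of these data known. Named are all probe sets of the members, the 3 genes with the smallest p of each list, and the 5 genes most correlated with Ccn2 and with Postn. Names outside this rule are the members past an adjusted p in an alternative, the family members stated as such, Tgfbi, and the markers. Alternatives were the offset (1 and 64), quantile normalization, normexp background (offset 50), the 60th percentile or no filter, a fit with no trend, array weights, day as a fixed or random block, the mean of a gene's probe sets, day 1 alone, and leaving out each array.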

Additional observations from a re-analysis of the deposited data

Results flagged for a closer look

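Probe set 1421811_at is assigned by the platform table to Thbs1 and to Pald1 and was therefore counted for neither gene. It read 372, 233 and 727 on knockout M4, M10 and M140, against 196, 169, 209.98 and 178 on the wild-type arrays (M23, M125, M128, M158), with no overlap. The knockout mean was 444 ± 255 (SD, n = 3) and the wild-type mean 188 ± 18.2 (SD, n = 4). The log2 difference came to 1.03, and to 1.72 within day 1. It exceeded the 40th percentile on 1 array, M140, and was not tested. The probe sets assigned to Thbs1 alone, 1450377_at and 1460302_at, did not lie apart between the groups.

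Fbln5 had 1 wild-type array far from the other 3: M125 read 1405 against 1079 to 1133, a gap of 0.836 of the group's range, above Dixon's limit for 4 arrays. This was 1 of 28 probe sets examined in this way, and chance flags about 1 in 20.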

How the results depend on the processing

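The count of tested probe sets past an adjusted p of 0.05 by limma was 0 as reported. It was 619 with array weights, 1 with the 60th percentile filter, 1 with the day as a fixed block, and 0 to 79 when each array was left out (79 without M10 and 27 without M140). At an unadjusted p under 0.05, 909 were higher and 727 lower, against 1741 and 1517 with array weights and 426 and 370 without M4. The member probe sets above all wild-type arrays on every knockout array, 2 as reported, were 2 to 7 when each array was left out, and those on all but 1 knockout array, 6 as reported, were 3 to 7. The day block as a fixed term compares M140 with M128 alone for these counts, and gave no value for them. The median of the further matricellular genes, 0.19, was 0.47 with the day as a fixed block, and that of the YAP and TEAD targets, 0.15, was 0.28 there and 0.025 with no filter, which adds dim genes. The median of the receptors, 0.07, was 0.14 with array weights, and that of the immediate early genes, 0.16, was 0.047 to 0.22 when each array was left out, lowest without M10. The cause was not tested. Of 234 values of member probe sets under alternatives, 220 stayed within 1 SD of the reported one. The sign held for Ccn1, Ccn2, Comp, Itgbl1, Postn, Tnc, 1448392_at of Sparc and 1422571_at of Thbs2 under each alternative run, over a range of 1.67 to 2.85 for Ccn2, 1.78 to 3.32 for Comp and 0.72 to 2.95 for Postn. It did not hold throughout for the dim Thbs1 probe sets or for 1416589_at of Sparc, and 1450663_at of Thbs2 came to 0 within day 1. No paired analysis was possible because the groups share no mouse numbers.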
